A study of Mus musculus with 16 samples.

Results

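The genes of the microtubule motors are described here in the cortex and the striatum of 10-day-old mice: the kinesins (symbols that begin with Kif and a digit or C), the kinesin light chains Klc1 to Klc4, and the subunits whose symbol begins with Dync (dynein) or Dctn (dynactin). This rule on protein-coding symbols found 60 genes among 53801 in the count table, of which 21967 are protein-coding. By role they are 17 transport kinesins, 14 mitotic kinesins, 6 ciliary kinesins, 6 other kinesins, 4 kinesin light chains, 5 subunits of cytoplasmic dynein, 2 of ciliary dynein and 6 of dynactin. The symbol rule also took Kif1bp, which encodes a protein that binds kinesins and is no motor itself.

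RNA was sequenced in 16 libraries from 9 mice of the strain C57BL6/J-129sv, 4 from controls and 4 from Trrap-FBΔ mice in either tissue, and 7 mice gave both. The control mice numbered 58, 64 and 65 and the Trrap-FBΔ mouse 60 were male. All other mice were female, so sex was not balanced between the genotypes. Control mice were Trrap Fl/+ and Trrap-FBΔ mice Trrap Fl/Fl, and every mouse, controls included, carried the Camk2-Cre transgene, which acts in excitatory neurons of the forebrain. Trrap is a shared subunit of histone acetyltransferase complexes. By these genotypes Cre can delete both Trrap alleles in Trrap-FBΔ mice and a single allele in the controls. The comparison asks which transcripts differ between these deletions. Whole tissue was sequenced, so cells without Cre contribute to every value, and in such bulk samples fewer cells of a type and less RNA per cell cannot be told apart.

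Between 28743866 and 48761429 reads were counted per library. The Trrap transcript did not separate the labelled genotypes: in the cortex it lay at 172.9, 155.7, 136.2 and 146.5 CPM in the controls and 121.2, 136.9, 134.5 and 146.2 in Trrap-FBΔ, with overlap, and edgeR gave a log2 fold change of -0.18 (adjusted p = 0.0826) there and of -0.044 (adjusted p = 0.519) in the striatum. This count covers the whole gene and all cells of the tissue. The study also checked the deletion by protein and PCR, which are not analysed here. Its methods name the driver as Tg(Camk2a-cre/ERT2)2Gsc, an inducible form, where the labels give Camk2-Cre. The groups below are the libraries labelled Trrap-FBΔ and control. Of the tissue markers, 5 of 6 excitatory neuron genes were lower in control striatum than in control cortex, while Slc17a6 was higher. The myelin genes were higher there in 6 of 6 cases. Only 1 of 7 genes of striatal projection neurons was higher, however, and their summed level ran from 226.5 to 614.4 CPM over the control cortices and from 185.5 to 987.3 over the control striata.

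Motor proteins walk along microtubules. Most kinesins move towards the plus end, and in axons they carry vesicles, organelles and mRNA away from the cell body, whereas cytoplasmic dynein, with its cofactor dynactin, moves cargo back. A separate set of kinesins builds and moves the mitotic spindle and serves cytokinesis, and its genes are expressed in dividing cells, while other kinesins and dynein 2 serve cilia. At day 10 most cortical and striatal neurons have left the cell cycle, and the dividing cells are mainly glial precursors.

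Levels are given as CPM (counts scaled to a common library size with the TMM factors of edgeR), and values of 4 libraries are listed in the order of the mouse numbers (controls 55, 58, 63 and 64 in the cortex and 58, 63, 64 and 65 in the striatum; Trrap-FBΔ 57, 59, 60 and 61 in both). Genes are compared with each other per length, as RPKM, CPM per kilobase of exon. Fold changes are log2 values of Trrap-FBΔ over control from edgeR's quasi-likelihood test within a tissue, and a gene was called at an adjusted p under 0.05.

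Per length the most abundant members were motors of transport. In control cortex Klc1, the light chain that links the kinesin-1 heavy chains to cargo, had the highest mean level, 210.4 ± 10.96 RPKM (SD, n = 4), followed by the kinesin-1 heavy chain Kif5a at 205 ± 10.4, which overlaps it within the spread. The heavy chain Kif5c (184 ± 13.3) and Kif1a (154 ± 7.19), the carrier of synaptic vesicle precursors, came next, and Kifc2 stood at 133 ± 4.00 RPKM. The most abundant mitotic kinesin, Kif11, stood at 1.198 ± 0.199 RPKM in the same libraries, and the others of its group between 0 (Kif2b) and 1.03. The lowest transport kinesins, Kif16b (1.61 ± 0.042) and Kif13b (2.05 ± 0.083 RPKM), were not far above Kif11. Kif2b had 0 counts in all 16 libraries, which allows at most 0.0615 to 0.104 CPM per library (3 counts, counting error only).

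Of the 58 members tested in the cortex, 28 were called, 7 higher and 21 lower in Trrap-FBΔ, with a median log2 fold change of -0.16. Over all genes tested there, 33.3% were called, 15.7% higher and 17.6% lower, with a median of 0.0010. In the striatum 59 members were tested and 23 were called, 6 higher and 17 lower, with a median of -0.050, where 30.2% of all genes were called, 14.4% higher and 15.8% lower, with a median of -0.0055. In both tissues 17 of 58 members were called (29.3%, against 19.1% of all genes tested in both), 14 lower and 3 higher, and 0 in opposite directions.

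Mitotic kinesins made up 8 of the 14 members called lower in both tissues, while 3 were transport kinesins (Kif5a, Kif21b and Kif3c), 2 were subunits of cytoplasmic dynein (Dync1i2 and Dync1li1) and 1 was Kif2a. Kif6, Dync2li1 and Dctn6 were the 3 higher in both. With sex as a covariate the striatal calls of Kif5a, Kif3c, Dync1i2, Kifc1, Dync2li1 and Dctn6 were lost, and so was the cortical call of Kif18a.

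**Figure D1:**
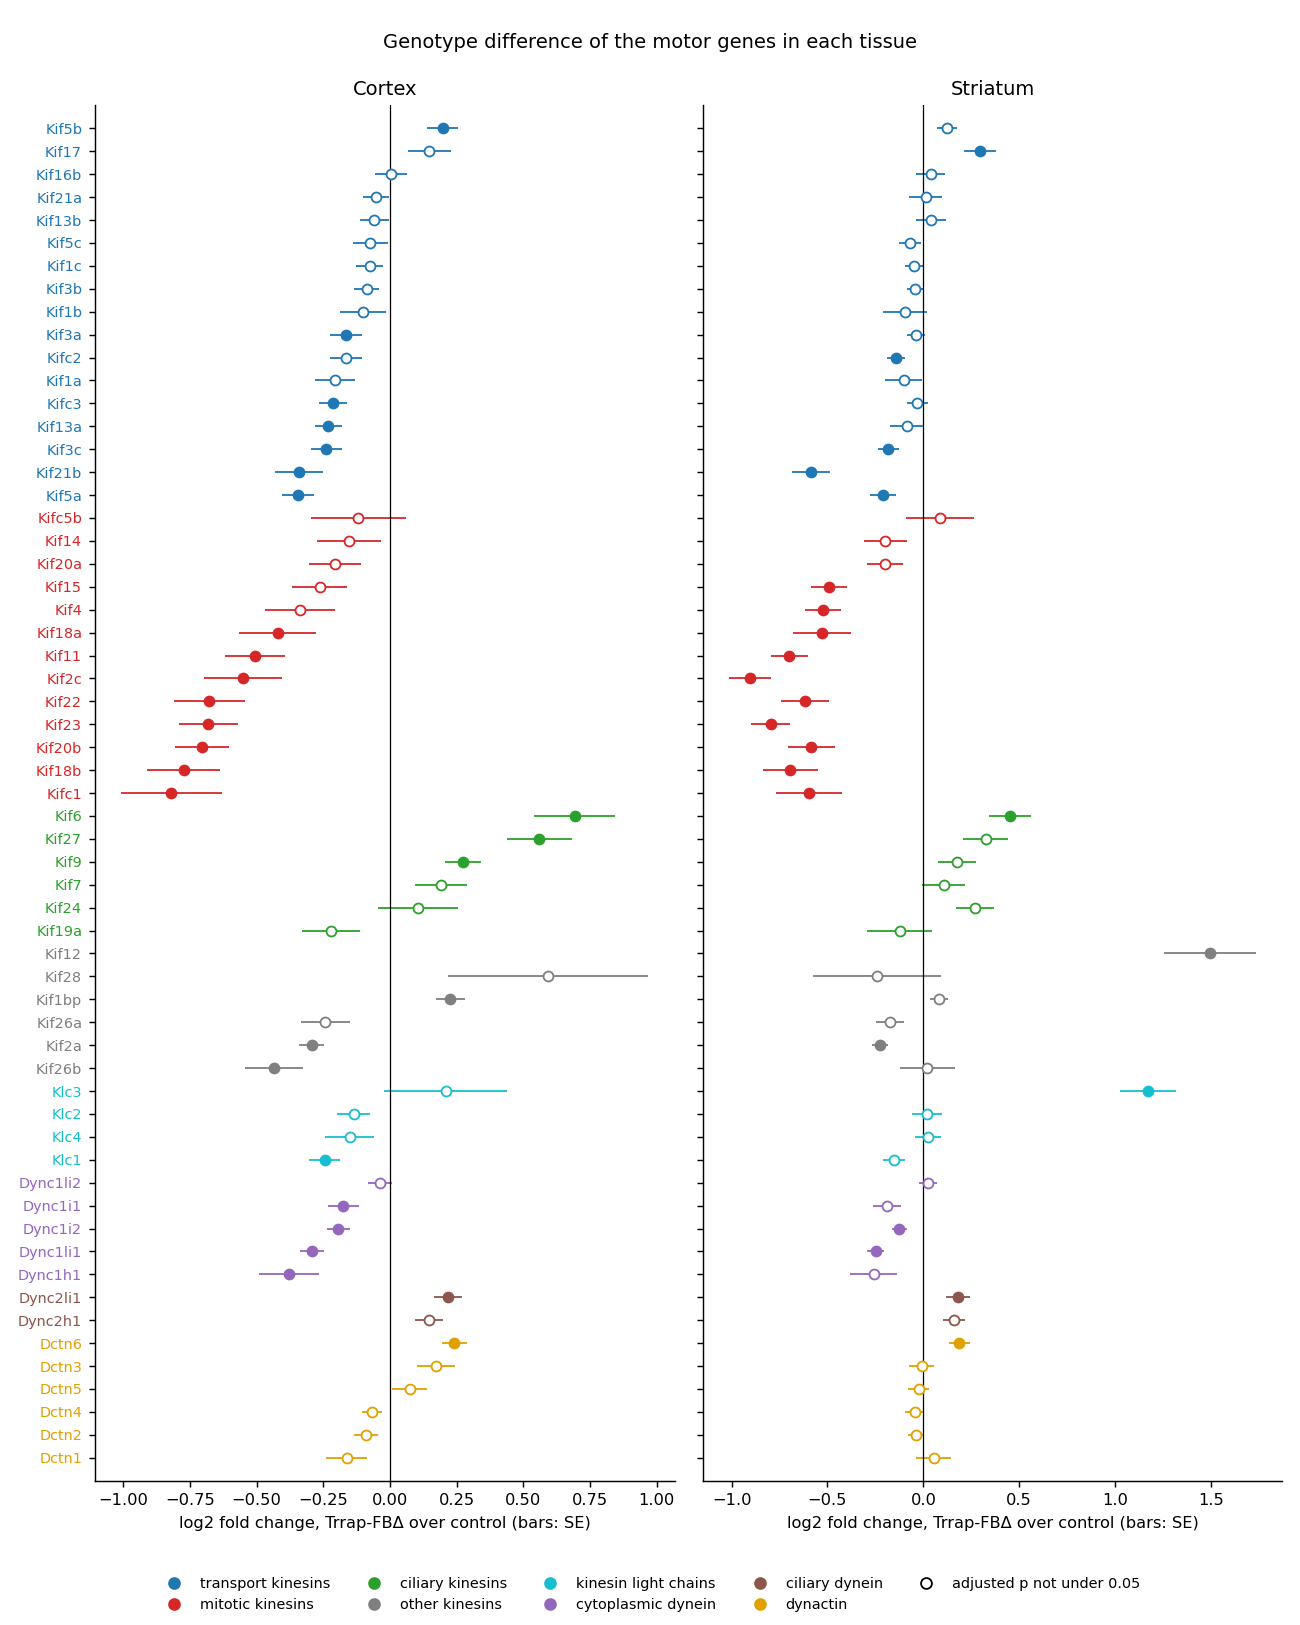
Log2 fold change of Trrap-FBΔ over control (x axis, bars are SE) for every member tested (y axis, coloured by role) in the cortex, 58 genes, and the striatum, 59 genes, with n = 4 libraries per group. Filled points have an adjusted p under 0.05, the panels have x axes of their own, and the mitotic kinesins hold most of the large falls in both panels, while Kif6 is higher in both.

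Most mitotic kinesins were lower in Trrap-FBΔ in both tissues. Of 13 tested, 8 cortical and 10 striatal ones were called lower, with 0 called higher, and the median log2 fold change of the group was -0.51 and -0.58. Over all genes tested, 17.6% and 15.8% were called lower and 15.7% and 14.4% higher in cortex and striatum. Summed over the group, the level was 47.2 to 56.4 CPM in control cortex and 36.3 to 37.1 in Trrap-FBΔ cortex, and 55.4 to 61.5 and 37.8 to 41.8 CPM in the striatum, without overlap in either tissue. Most of the 15 markers of proliferating cells moved with them, and 13 had a log2 value below 0 in each tissue. In cortex and striatum 11 and 12 of the 15 were called lower and 0 higher. The summed level of the markers was 110.2 to 127.6 against 78.5 to 83.7 CPM in the cortex and 124.3 to 155.5 against 86.0 to 95.6 CPM in the striatum. Among them Mki67 changed by -0.91 and -0.84 and Top2a by -0.90 and -0.88 in cortex and striatum. Pcna and Bub1b went the other way, with higher means in Trrap-FBΔ in both tissues, and were not called. The part of a lower number of dividing cells in the fall of the mitotic kinesins was not tested.

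The largest fall on average over both tissues was that of Kif23, a kinesin of the central spindle that is needed for cytokinesis (chr9:61915905-61946774 in GRCm38). In the cortex Kif23 lay at 6.29, 6.29, 5.27 and 5.06 CPM in the controls and at 3.52, 4.07, 3.32 and 3.40 in Trrap-FBΔ. In the striatum the values were 6.08, 5.95, 7.47 and 6.63 in control and 3.82, 4.04, 3.31 and 3.88 in Trrap-FBΔ. Every Trrap-FBΔ library was below every control library of its tissue, and the level was 0.624 times that of the controls in the cortex (log2 fold change -0.68, SE 0.11, adjusted p = 0.000904) and 0.576 times in the striatum (log2 fold change -0.80, SE 0.10, adjusted p = 0.000567).

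Kif18b, a kinesin-8 that shortens astral microtubules, was at 2.38, 2.34, 2.21 and 1.99 CPM in control cortex and 1.35, 1.28, 1.10 and 1.46 in Trrap-FBΔ cortex. Its striatal values were 2.65, 2.58, 3.29 and 2.75 in control and 1.89, 1.49, 1.49 and 2.08 CPM in Trrap-FBΔ. Again the groups did not overlap, and Kif18b fell in both tissues (log2 fold change -0.77, SE 0.14, adjusted p = 0.0015 in the cortex, and log2 fold change -0.69, SE 0.14, adjusted p = 0.00564 in the striatum).

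Kif2c is the depolymerase that corrects attachments of chromosomes to the spindle. It was measured at 2.23, 2.18, 1.71 and 2.40 CPM in control and 1.25, 1.48, 1.49 and 1.58 in Trrap-FBΔ cortex. In the striatum it stood at 2.80, 3.03, 3.52 and 3.14 in control and 1.63, 1.72, 1.59 and 1.74 in Trrap-FBΔ. The gap between the groups was wider in the striatum, where the level was 0.534 times that of the controls (log2 fold change -0.91, SE 0.11, adjusted p = 0.000403), than in the cortex, at 0.682 times (log2 fold change -0.55, SE 0.15, adjusted p = 0.0139), but the difference between the tissues was not called (log2 fold change -0.35, SE 0.17, adjusted p = 0.423).

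Kifc1, which moves towards the minus end and focuses the spindle poles, gave 2.05, 1.21, 1.69 and 1.60 CPM in control and 0.849, 1.12, 0.861 and 0.854 in Trrap-FBΔ cortex. Striatal levels were 1.70, 1.58, 1.66 and 1.27 in control and 0.868, 0.807, 1.15 and 1.23 CPM in Trrap-FBΔ. The groups were separate in both tissues (log2 fold change -0.82, SE 0.19, adjusted p = 0.00648, and log2 fold change -0.60, SE 0.17, adjusted p = 0.0256). Its close copy Kifc5b was not called in either tissue (cortex -0.12, striatum 0.086), and since the authors kept uniquely mapped reads, the division of reads between the copies is uncertain.

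Kif22 is a chromokinesin that pushes chromosome arms away from the poles. Cortical values were 5.30, 6.22, 4.72 and 4.00 CPM in the controls and 3.37, 3.18, 3.13 and 2.98 in Trrap-FBΔ. Striatal values were 5.48, 4.92, 5.42 and 4.79 in control and 3.58, 3.03, 2.75 and 4.04 in Trrap-FBΔ. No Trrap-FBΔ library reached the lowest control of its tissue (log2 fold change -0.68, SE 0.13, adjusted p = 0.00268 in the cortex, and log2 fold change -0.62, SE 0.13, adjusted p = 0.00514 in the striatum).

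Kif20b, another kinesin of cytokinesis, lay at 4.90, 4.28, 4.44 and 4.88 CPM in control and at 2.78, 2.62, 3.11 and 2.81 in Trrap-FBΔ cortex. It was at 5.10, 4.78, 4.63 and 6.13 in control and at 2.84, 3.61, 3.62 and 3.70 in Trrap-FBΔ striatum. Its groups were also separate (log2 fold change -0.70, SE 0.10, adjusted p = 0.000451, and log2 fold change -0.58, SE 0.12, adjusted p = 0.00604), and in Trrap-FBΔ striatum mouse 57 was the lowest library.

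Kif11, the tetrameric motor that slides spindle microtubules apart, followed the same order. Cortical controls held 10.9, 9.22, 8.18 and 7.47 CPM and Trrap-FBΔ cortices 5.87, 6.70, 6.16 and 6.38. Striatal controls held 9.57, 9.96, 10.8 and 9.43 and Trrap-FBΔ striata 5.08, 6.84, 6.15 and 6.45. The groups did not overlap, and the level was 0.704 times that of the controls in the cortex (log2 fold change -0.51, SE 0.11, adjusted p = 0.00537) and 0.616 times in the striatum (log2 fold change -0.70, SE 0.099, adjusted p = 0.000836).

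The eighth member of the group called in both tissues, Kif18a, which limits chromosome movements at the metaphase plate, ranged from 3.10 to 3.47 CPM in control and 1.93 to 3.11 in Trrap-FBΔ cortex, where mouse 57 lay inside the control range. Its call in the cortex (log2 fold change -0.42, SE 0.15, adjusted p = 0.0429) was lost when any library but that of mouse 57 was left out (adjusted p up to 0.117), and its call in the striatum (log2 fold change -0.53, SE 0.15, adjusted p = 0.0241) was lost without mouse 59, 61 or 64 (up to 0.0635). For Kifc1 the striatal call was lost without mouse 57, 58, 59 or 64 (up to 0.0727), whereas the calls of Kif23, Kif18b, Kif2c, Kif22, Kif20b and Kif11 held in both tissues without any one of the libraries.

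Among the remaining mitotic kinesins, Kif4, a chromokinesin, and Kif15, which can stand in for Kif11 at the spindle, were called lower in the striatum (-0.52 ± 0.096 (SE; adjusted p = 0.00297) and -0.49 ± 0.094 (SE; adjusted p = 0.00363)) and not in the cortex (-0.34 ± 0.13 (SE; adjusted p = 0.0688) and -0.26 ± 0.10 (SE; adjusted p = 0.0669)). The difference between the tissues was not called for Kif4 (adjusted p = 0.709) or for Kif15 (0.501). Kif14 and Kif20a, both of cytokinesis, were not called in either tissue, with log2 values of -0.15 and -0.21 in the cortex and -0.20 and -0.20 in the striatum. Reads of Kif22 and Kif4 could be shared with their annotated pseudogenes.

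**Figure D2:**
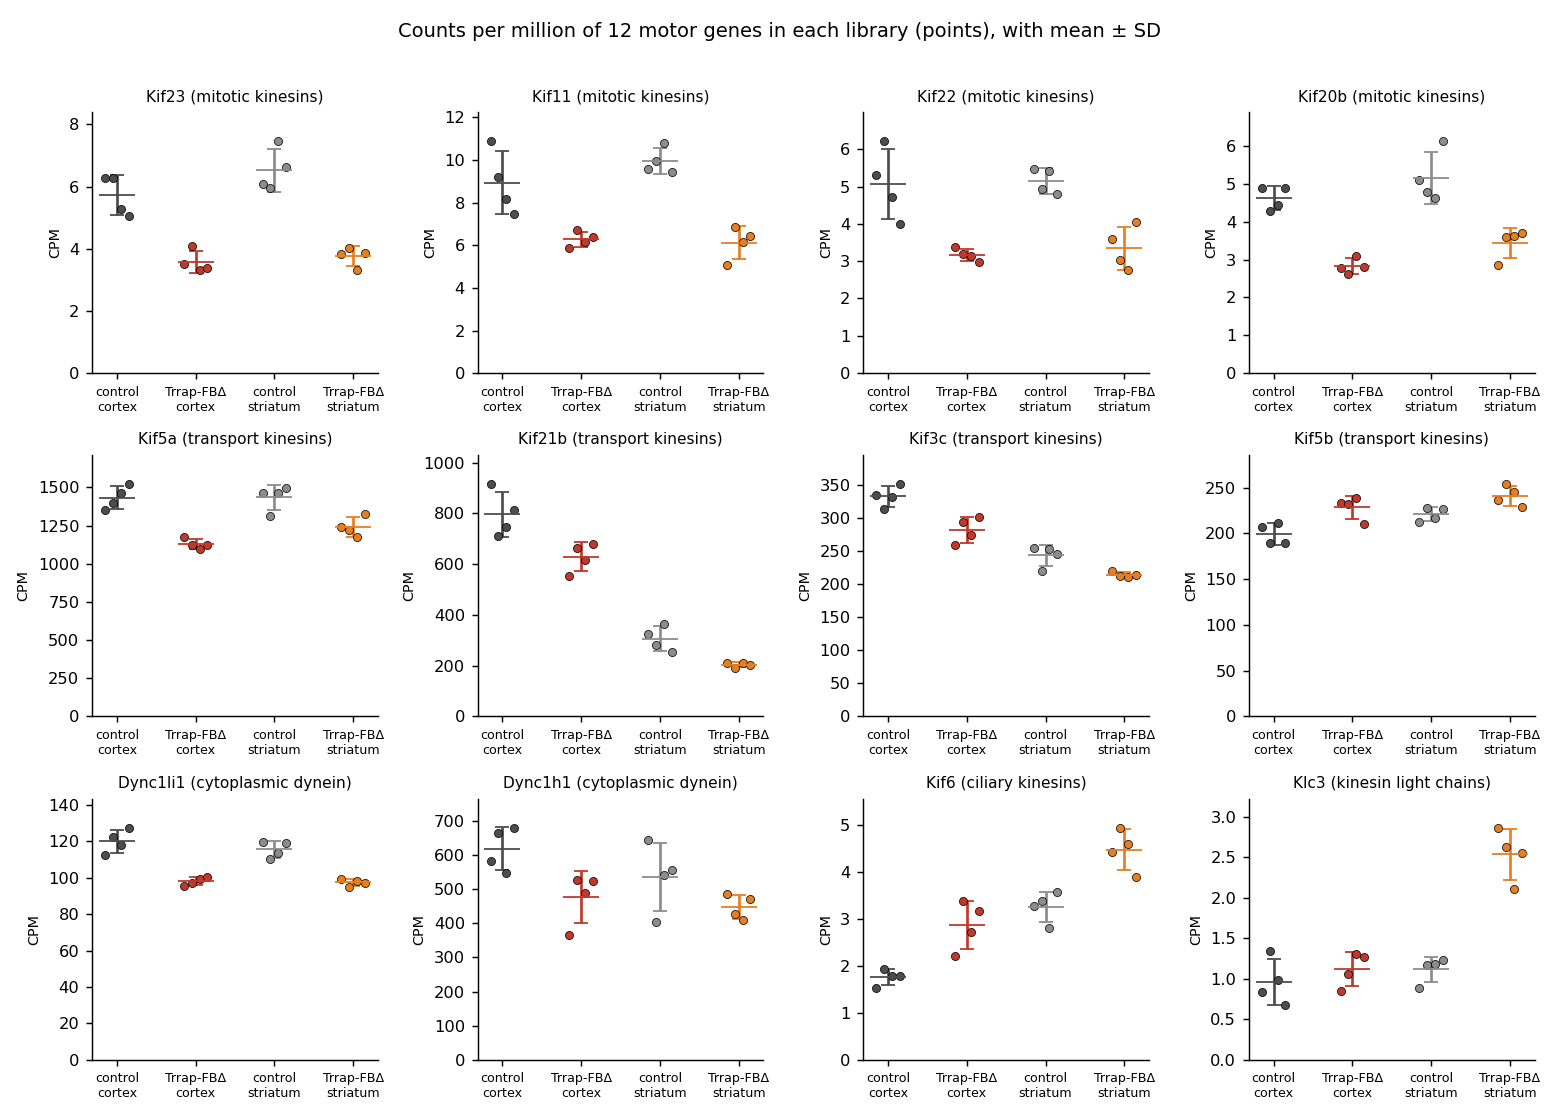
CPM (y axis, from 0) of 12 motor genes in each of the 16 libraries (points), by group on the x axis, with the mean as a bar and the SD as whiskers, n = 4. The 4 mitotic kinesins of the first row lie lower in Trrap-FBΔ in both tissues with no overlap, Kif21b differs most between the tissues, and Klc3 is high in Trrap-FBΔ striatum only among the 4 groups.

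The sequences around the start sites of the mitotic kinesins share motifs that the rule on symbols did not use. Genes of the G2 and M phases often carry a CCAAT box, bound by the factor NF-Y, and a cell cycle genes homology region (CHR), bound by the DREAM complex, while a GC box is bound by Sp factors. The promoter table of RefSeq (build GRCm38.p6) covers 250 bases before to 50 bases after each start and held 45 of the 60 members. The letters searched, on both strands, were TTTGAA for the CHR, CCAAT for the CCAAT box and GGGCGG for the GC box. A CHR was found in 11 of the 13 mitotic kinesins with a window (84.6%), in 1 of 11 transport kinesins (9.09%) and in 20.2% of all 27025 genes of the table. CCAAT occurred in 9 of 13 (69.2%), 3 of 11 (27.3%) and 41.1%, and the GC box in 6 of 13 (46.2%), 9 of 11 (81.8%) and 38.2%. The CHR did not go with the calls in every gene. It occurred in Kif14 and Kifc5b, which were called in neither tissue, and was absent from Kif18a, called lower in both. The transport kinesin with a CHR was Kif1a. A match is a run of letters and no proof of binding.

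For 5 mitotic kinesins called lower in both tissues, the last 120 bases before the RefSeq start follow, 5′ to 3′ on the gene's strand, with each of the 3 motifs in capitals. Read on the opposite strand, the CCAAT box appears as ATTGG. The CHR then appears as TTCAAA, and the GC box is CCGCCC. They are shown because in each of them a CHR lies within 20 bases of the start. Where the CHR lies behind the start, the first 24 transcribed bases are added, with the CHR alone in capitals. Of the Kifc1 run, 28 bases lie inside the gene model used for counting. Of the 24 transcribed bases, 0 lie inside that model for Kif23 and 21 for Kif20b, so the RefSeq starts differ from those of the model.
Kif11 (chr19:37376262-37376381, plus strand): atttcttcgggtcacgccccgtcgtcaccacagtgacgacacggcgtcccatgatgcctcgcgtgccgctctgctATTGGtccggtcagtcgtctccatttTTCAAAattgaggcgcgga
Kif18b (chr11:102925125-102925244, minus strand): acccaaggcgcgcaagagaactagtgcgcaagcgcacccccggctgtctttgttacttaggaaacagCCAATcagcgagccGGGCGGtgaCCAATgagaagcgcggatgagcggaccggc
Kif18b, transcribed (chr11:102925101-102925124, minus strand): tagTTTGAAcgcgccgcgccggaa
Kif23 (chr9:61946800-61946919, minus strand): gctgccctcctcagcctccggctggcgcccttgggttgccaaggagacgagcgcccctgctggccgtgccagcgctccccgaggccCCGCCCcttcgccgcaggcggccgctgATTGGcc
Kif23, transcribed (chr9:61946776-61946799, minus strand): tgTTTGAAatgcgccgggcgggcg
Kif20b (chr19:34922238-34922357, plus strand): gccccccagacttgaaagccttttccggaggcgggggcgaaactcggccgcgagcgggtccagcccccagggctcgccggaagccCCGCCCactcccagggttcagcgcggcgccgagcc
Kif20b, transcribed (chr19:34922358-34922381, plus strand): gccattgTTTGAATTTGAAaaccg
Kifc1 (chr17:33890634-33890753, minus strand): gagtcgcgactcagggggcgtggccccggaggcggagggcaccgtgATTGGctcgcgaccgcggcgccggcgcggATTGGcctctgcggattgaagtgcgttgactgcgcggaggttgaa
Kifc1, transcribed (chr17:33890610-33890633, minus strand): aTTCAAAagtggcgggtgtggctg

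In Kif11 the CHR begins 19 bases before the start and lies on the opposite strand, as does the CCAAT box at 45 bases. In the other 4 genes the CHR begins at transcribed base 4 (Kif18b), 3 (Kif23), 8 and 14 (Kif20b, where it occurs in tandem) and 2 (Kifc1, on the opposite strand). CCAAT boxes lie 53 and 30 bases before the start in Kif18b, 7 bases in Kif23, and 74 and 45 bases in Kifc1, and none of these letters is in the window of Kif20b.

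2 transport kinesins called lower in the cortex, Kif3a and Kif3c, are shown beside them as examples without a CHR, which all transport kinesins with a window but Kif1a lack. In Kif3a the capitals are a CCAAT box and a GC box that share bases, both within 20 bases of the start, and in Kif3c none of the 3 motifs occurs. Kif3c is thus unlike most of the group, in which 9 of 11 hold a GC box.
Kif3a (chr11:53567249-53567368, plus strand): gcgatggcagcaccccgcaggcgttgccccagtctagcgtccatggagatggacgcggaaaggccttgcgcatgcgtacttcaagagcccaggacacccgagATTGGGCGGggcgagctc
Kif3c (chr12:3365012-3365131, plus strand): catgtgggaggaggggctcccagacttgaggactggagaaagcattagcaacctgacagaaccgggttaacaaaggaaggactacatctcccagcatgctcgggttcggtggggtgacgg

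**Figure D3:**
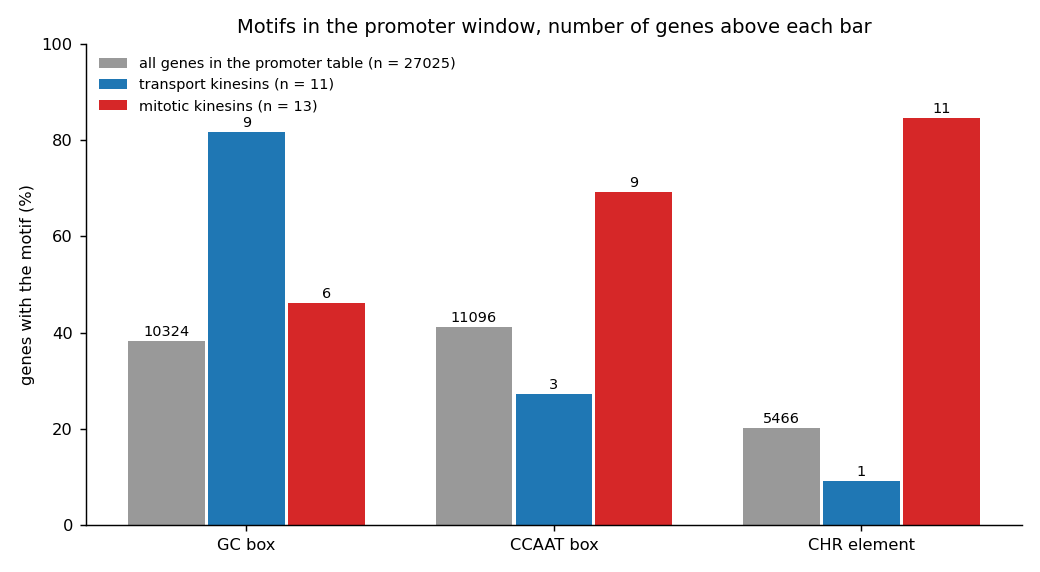
Share of genes (y axis, percent, from 0) with each motif on either strand of the 300-base promoter window, for all 27025 genes of the table, 11 transport kinesins and 13 mitotic kinesins, with the number of genes above each bar. The CHR bar is highest for the mitotic kinesins, at 84.6%, and lowest for the transport kinesins, at 9.09%.

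Transport kinesins had fewer calls and smaller medians. Of 17, 1 was called higher and 6 lower in the cortex (median -0.10) and 1 higher and 4 lower in the striatum (median -0.050). Over all genes tested, 15.7% were called higher and 17.6% lower in the cortex, and 14.4% and 15.8% in the striatum. In both tissues 3 of the 17 were called (17.6%, against 19.1% of all genes tested in both). The summed level of the transport kinesins was 7521 to 8128 CPM in control and 6614 to 7123 in Trrap-FBΔ cortex, without overlap, and 6091 to 7244 and 6095 to 6438 in the striatum, with overlap. The lowest control striatum was that of mouse 63. In that library, and in the cortex of the Trrap-FBΔ mouse 57, long transcripts were low in general: over 2661 genes with at least 8000 bp of exon the median log2 deviation from the tissue's mean was -0.050 and -0.071, against -0.018 to 0.050 in the other 14 libraries. Of the transport kinesins 6 are that long, of the mitotic kinesins 3, and the part of this in the values was not tested. Without mouse 63 the striatum had 23 members called lower in place of 17, and without mouse 57 the cortex had 20 in place of 21.

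**Figure D4:**
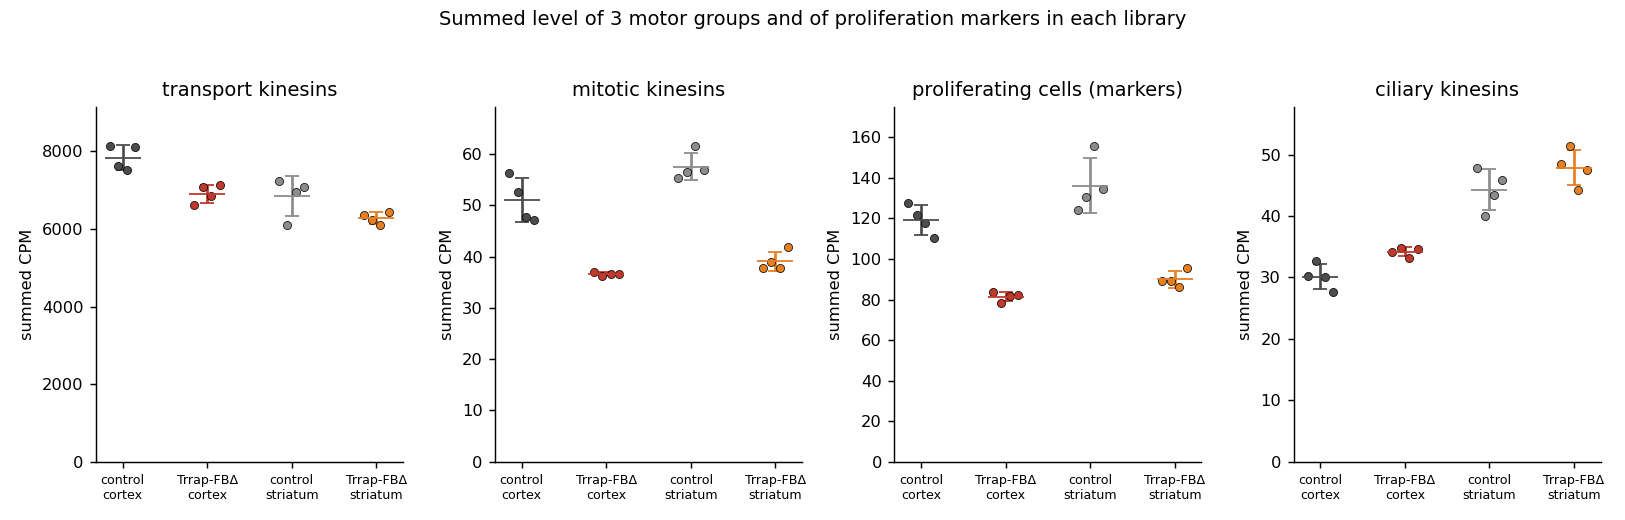
Summed CPM (y axis, from 0) of the 17 transport kinesins, 14 mitotic kinesins, 15 markers of proliferating cells and 6 ciliary kinesins in each library (points), by group, with the mean as a bar and the SD as whiskers, n = 4. Mitotic kinesins and proliferation markers drop in Trrap-FBΔ in both tissues without overlap, and transport kinesins separate in the cortex only.

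The 3 heavy chains of kinesin-1, the main anterograde motor of axons, took different courses. Kif5a, the neuronal form, stood at 1354, 1399, 1460 and 1520 CPM in control and 1173, 1123, 1096 and 1124 in Trrap-FBΔ cortex. In the striatum it stood at 1460, 1314, 1465 and 1498 in control and 1243, 1221, 1172 and 1325 in Trrap-FBΔ. The cortical groups were separate and the striatal groups overlapped by mouse 61 alone, and Kif5a was called lower in both (log2 fold change -0.34, SE 0.061, adjusted p = 0.00147, and log2 fold change -0.21, SE 0.067, adjusted p = 0.0384). The striatal call was lost without mouse 57, 58, 59, 60, 64 or 65 (adjusted p up to 0.102).

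Kif5b, the form found in all tissues, went the other way in the cortex. Controls held 207, 189, 212 and 189 CPM and Trrap-FBΔ cortices 233, 232, 239 and 210.3. Striatal values were 212, 228, 217 and 227 in control and 236, 254, 245 and 229 in Trrap-FBΔ. It was called higher in the cortex (log2 fold change 0.20, SE 0.058, adjusted p = 0.0217), where mouse 61 lay inside the control range, and this call was lost without mouse 58, 60 or 64 (adjusted p up to 0.0711). In the striatum the groups were separate, but the difference was not called (log2 fold change 0.12, SE 0.050, adjusted p = 0.0861).

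Kif5c, the second neuronal form, did not pass the test in either tissue. Its cortical values were 1436, 1246, 1233 and 1345 CPM in control and 1264, 1278, 1241 and 1221 in Trrap-FBΔ. Its striatal values were 1224, 1154, 1201 and 1248 in control and 1164, 1171, 1149 and 1114 in Trrap-FBΔ. The ranges overlapped in both tissues (log2 fold change -0.073, SE 0.067, adjusted p = 0.425, and log2 fold change -0.070, SE 0.056, adjusted p = 0.372).

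Kif21b (chr1:136131389-136177998 in GRCm38), a neuronal kinesin that regulates microtubule growth, had the largest striatal fall of the transport kinesins and, after Kif5a, the largest cortical one. In the cortex it was at 915, 712, 745 and 814 CPM in control and 555, 665, 618 and 680.4 in Trrap-FBΔ. In the striatum it was at 325, 281, 364 and 256 in control and 211, 191, 209.5 and 204 in Trrap-FBΔ. All Trrap-FBΔ libraries were below all controls of their tissue, and the level was 0.790 times that of the controls in the cortex (log2 fold change -0.34, SE 0.089, adjusted p = 0.0129) and 0.666 times in the striatum (log2 fold change -0.59, SE 0.098, adjusted p = 0.00195). Most markers of excitatory neurons moved with it in the striatum, where 4 of 6 were called lower and the summed level was 630.2 to 786.7 CPM in control and 469.7 to 536.4 in Trrap-FBΔ. In this sum Slc17a6 did not fall, with 200.7 to 340 CPM in control and 235.9 to 295.7 in Trrap-FBΔ. In the cortex 2 of 6 were lower and the sums, 1443 to 1836 and 1582 to 1718, overlapped. The part of these neurons in the fall of Kif21b was not tested.

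The kinesin-2 heavy chains pair as Kif3a with Kif3b or Kif3c. Kif3a was measured at 263, 236, 235 and 261 CPM in control and 204, 234, 226 and 224 in Trrap-FBΔ cortex. In the striatum the values were 233, 214, 227 and 239 in control and 223, 231, 217 and 218 in Trrap-FBΔ. It was called lower in the cortex by a narrow margin (log2 fold change -0.16, SE 0.059, adjusted p = 0.0492), a call that was lost without mouse 55, 57, 59, 60, 61 or 64 (up to 0.128), and not in the striatum, where the groups overlapped (log2 fold change -0.039, SE 0.048, adjusted p = 0.577).

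Kif3c, the neuronal partner, gave 335, 314, 332 and 352 CPM in control and 259.7, 295, 274 and 301 in Trrap-FBΔ cortex. Striatal libraries gave 255, 221, 254 and 246 in control and 220.3, 213, 211 and 215 in Trrap-FBΔ. Kif3c was called lower in both tissues with separate groups (log2 fold change -0.24, SE 0.059, adjusted p = 0.00904, and log2 fold change -0.18, SE 0.054, adjusted p = 0.0267), but the striatal call was lost without any library other than that of mouse 63 (up to 0.0735). Kif3b was not called in either tissue (-0.088 and -0.043), and Kifap3, the cargo-binding subunit of the same motor, was called lower in the cortex (-0.18 ± 0.048 (SE; adjusted p = 0.0145)) and not in the striatum (-0.15 ± 0.057 (SE; adjusted p = 0.0661)).

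Kif1a did not pass the test. It held 1453, 1480, 1337 and 1474 CPM in control and 1094, 1266, 1248 and 1376 in Trrap-FBΔ cortex. Striatal values were 1513, 1093, 1352 and 1437 in control and 1255, 1206, 1211 and 1348 in Trrap-FBΔ. Mouse 57 was the lowest cortex and the control mouse 63 the lowest striatum, the libraries in which long transcripts were low, and the groups overlapped (log2 fold change -0.21, SE 0.076, adjusted p = 0.0574, and log2 fold change -0.10, SE 0.097, adjusted p = 0.45).

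Further calls in the transport group were made in a single tissue. Kif13a, an endosome carrier, and Kifc3 were lower in the cortex (-0.23 ± 0.051 (SE; adjusted p = 0.00497) and -0.21 ± 0.053 (SE; adjusted p = 0.00959)), Kifc2 was lower in the striatum (-0.14 ± 0.048 (SE; adjusted p = 0.0443)), and Kif17, a dendritic motor, was higher there (0.30 ± 0.082 (SE; adjusted p = 0.0214)). The Kif17 gene overlaps Sh2d5 on the same strand over 10898 bases, so its reads are uncertain, and its call was lost without mouse 57, 58, 60 or 65 (up to 0.0653). For Kifc2 the call was lost without mouse 57, 58, 59, 60, 61 or 64 (up to 0.114). The remaining transport kinesins, Kif1b, Kif1c, Kif13b, Kif16b and Kif21a, were not called, with log2 values from -0.10 to 0.003 in the cortex and from -0.10 to 0.041 in the striatum.

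Of the 4 kinesin light chains 1 was called in each tissue, not the same one, where 33.3% and 30.2% of all genes were called. Klc1 was at 823, 834, 848 and 922 CPM in control and 691, 742, 702 and 757 in Trrap-FBΔ cortex. The striata showed 719, 633, 683 and 667 in control and 633, 592, 591 and 615 in Trrap-FBΔ. The groups were separate in both tissues, and Klc1 was called lower in the cortex (log2 fold change -0.25, SE 0.060, adjusted p = 0.00879) and not in the striatum (log2 fold change -0.15, SE 0.058, adjusted p = 0.0705).

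Klc3 (chr7:19394437-19404104 in GRCm38), a light chain known best from the sperm tail, was low in both tissues and had the largest striatal rise of the members after Kif12. Cortical values were 0.841, 1.35, 0.986 and 0.672 CPM in control and 0.849, 1.06, 1.31 and 1.27 in Trrap-FBΔ, with overlap. Striatal values were 0.881, 1.17, 1.18 and 1.23 in control and 2.87, 2.62, 2.11 and 2.55 in Trrap-FBΔ, far apart. In the striatum it was 2.25 times the control level (log2 fold change 1.17, SE 0.15, adjusted p = 0.000457), in the cortex it was not called (log2 fold change 0.21, SE 0.23, adjusted p = 0.513). Its gene overlaps Ercc2 on the opposite strand over 1258 bases, and the counts were strand-specific. Klc2 and Klc4 were not called in either tissue.

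Cytoplasmic dynein drew 4 cortical and 2 striatal calls over its 5 subunits, all lower, where 17.6% and 15.8% of all genes were called lower. Dync1h1, the heavy chain that holds the motor, lay at 582, 666, 548 and 681 CPM in control and 366, 526, 489 and 525 in Trrap-FBΔ cortex. In striatum the level was 645, 404, 541 and 558 in control and 485, 428, 409 and 471 in Trrap-FBΔ. The cortical groups were separate and the fall was called (log2 fold change -0.38, SE 0.11, adjusted p = 0.0222), also without mouse 57, the lowest library, but not without mouse 58 or 64 (adjusted p up to 0.0611). Striatal groups overlapped and the difference was not called (log2 fold change -0.26, SE 0.12, adjusted p = 0.136).

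Dync1li1, a light intermediate chain that binds cargo adaptors, was called lower in both tissues. It gave 113, 122, 118 and 128 CPM in control and 95.7, 97.3, 99.1 and 101 in Trrap-FBΔ cortex. Striatal libraries gave 119.9, 110.1, 114 and 119 in control and 99.2, 94.8, 98.4 and 97.4 in Trrap-FBΔ. The groups were separate (log2 fold change -0.29, SE 0.045, adjusted p = 0.000673, and log2 fold change -0.25, SE 0.043, adjusted p = 0.0023), and the calls held without any one library. Its relative Dync1li2 was not called in either tissue (-0.037 and 0.023).

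The intermediate chains, which bind dynactin, were both lower in the cortex. Dync1i2 changed by -0.19 ± 0.044 (SE; adjusted p = 0.00653) in the cortex and -0.13 ± 0.038 (SE; adjusted p = 0.0311) in the striatum, with separate groups in each, but the striatal call was lost without mouse 57, 58, 59, 60, 61 or 64 (up to 0.0937). Dync1i1, the neuronal form, stood at 162, 156, 154 and 174 CPM in control and 129, 148, 142 and 153 in Trrap-FBΔ cortex. It stood at 116, 87.4, 106 and 108 in control and 90.7, 91.5, 87.7 and 94.8 in Trrap-FBΔ striatum. It was called in the cortex (log2 fold change -0.17, SE 0.058, adjusted p = 0.0381), a call lost without mouse 55, 57, 59, 60 or 64 (up to 0.114), and not in the striatum (log2 fold change -0.19, SE 0.075, adjusted p = 0.0803).

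Of the 6 dynactin subunits 1 was called, in both tissues, where 33.3% of all genes were called in the cortex and 30.2% in the striatum. Dctn1, the subunit that binds microtubules and dynein, was at 280.2, 325, 289 and 342 CPM in control and 247, 279, 272 and 309 in Trrap-FBΔ cortex. Striatal libraries held 286, 205, 254 and 248 in control and 279, 251, 242 and 258 in Trrap-FBΔ. The ranges overlapped in both tissues and it was not called (log2 fold change -0.16, SE 0.078, adjusted p = 0.13, and log2 fold change 0.053, SE 0.091, adjusted p = 0.694).

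Dctn6, of the pointed-end complex of dynactin, was that subunit. Cortical values were 67.5, 70.4, 72.3 and 72.8 CPM in control and 87.5, 86.7, 80.2 and 80.4 in Trrap-FBΔ. Striatal values were 56.8, 67.4, 63.04 and 60.3 in control and 72.8, 68.8, 71.9 and 68.4 in Trrap-FBΔ. Both pairs of groups were separate (log2 fold change 0.24, SE 0.046, adjusted p = 0.00238, and log2 fold change 0.19, SE 0.057, adjusted p = 0.0303), and the striatal call was lost without mouse 57, 58, 59, 60, 64 or 65 (up to 0.0858). Dctn2 to Dctn5 had log2 values from -0.089 to 0.17 in the cortex and from -0.046 to -0.009 in the striatum, none called.

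The calls among the ciliary motors were all higher. Of 6 ciliary kinesins 3 cortical and 1 striatal were called higher, where 15.7% and 14.4% of all genes were called higher. The medians of the group were 0.23 and 0.22, and 0 were called lower. Kif6 (chr17:49615136-49909847 in GRCm38), a kinesin of motile cilia, was at 1.54, 1.94, 1.79 and 1.78 CPM in control and 2.22, 3.38, 2.72 and 3.17 in Trrap-FBΔ cortex. The striata showed 3.27, 3.39, 2.81 and 3.57 in control and 4.43, 4.95, 4.60 and 3.90 in Trrap-FBΔ. The groups did not overlap and the rise was called in both tissues (log2 fold change 0.69, SE 0.15, adjusted p = 0.00483, and log2 fold change 0.45, SE 0.11, adjusted p = 0.0124), also without any one library.

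Kif9 and Kif27, both linked to motile cilia, were called higher in the cortex (0.27 ± 0.068 (SE; adjusted p = 0.00992) and 0.56 ± 0.12 (SE; adjusted p = 0.0049)), while in the striatum they did not pass (0.18 ± 0.097 (SE; adjusted p = 0.198) and 0.32 ± 0.12 (SE; adjusted p = 0.0578)). Kif7, which regulates hedgehog signalling at the ciliary tip, Kif24 and Kif19a were not called in either tissue. Kif19a had log2 values below 0 in cortex and striatum (-0.22 and -0.12). Markers of ependymal cells and choroid plexus, which carry motile cilia, had 1 of 6 called in the cortex (Tekt1, 0.76 ± 0.15 (SE; adjusted p = 0.0025)) and 0 of 6 in the striatum by edgeR (2 at an unadjusted p under 0.05). Their medians of 0.28 and 0.24 were as high as those of the ciliary kinesins, with 5 and 6 of the 6 above 0. Their summed level overlapped between the genotypes (161.8 to 476.8 against 127.1 to 425.9 CPM in the cortex and 135.4 to 562.8 against 287.1 to 730.1 in the striatum), but it consists mostly of Ttr. Without Ttr, a choice made after its values were seen, the sums were 12.4 to 14.00 against 13.8 to 17.5 CPM in the cortex and 29.3 to 34.01 against 30.3 to 42.8 CPM in the striatum. Their part in the rise was not tested.

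Dynein 2 returns cargo from the tip of the cilium. Its light intermediate chain Dync2li1 stood at 22.03, 22.5, 23.3 and 22.3 CPM in control and 25.6, 26.9, 25.5 and 26.7 in Trrap-FBΔ cortex. Striatal values were 20.9, 24.5, 24.3 and 22.4 in control and 25.8, 26.2, 27.1 and 25.3 in Trrap-FBΔ. The groups were separate in both tissues (log2 fold change 0.22, SE 0.052, adjusted p = 0.00807, and log2 fold change 0.18, SE 0.062, adjusted p = 0.0497), and the striatal call was lost without any library but that of mouse 63 (up to 0.131). The heavy chain Dync2h1 missed the threshold in both (0.15 ± 0.052 (SE; adjusted p = 0.0503) and 0.16 ± 0.059 (SE; adjusted p = 0.0628)).

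Among the other kinesins, Kif2a, a depolymerase that prunes axon branches, fell in both tissues. Its cortical range was 176 to 190 CPM in control and 142 to 154 in Trrap-FBΔ, and its striatal range 149 to 157 and 127 to 134. The groups were separate (log2 fold change -0.29, SE 0.046, adjusted p = 0.000753, and log2 fold change -0.23, SE 0.040, adjusted p = 0.00259), also without any one library. Kif1bp was called higher in the cortex (0.23 ± 0.054 (SE; adjusted p = 0.00807)) and not in the striatum (0.083 ± 0.048 (SE; adjusted p = 0.216)).

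Kif26b, an unusual kinesin without motor activity, was at 40.6, 35.5, 30.6 and 38.9 CPM in control and 21.7, 28.6, 27.4 and 30.03 in Trrap-FBΔ cortex. It reached 70.8, 43.5, 54.8 and 68.8 in control and 57.4, 62.3, 51.99 and 69.4 in Trrap-FBΔ striatum. Cortical groups were separate and lower in Trrap-FBΔ (log2 fold change -0.44, SE 0.11, adjusted p = 0.00949), and striatal groups overlapped (log2 fold change 0.020, SE 0.14, adjusted p = 0.931). Kif12 had 1, 2, 0 and 1 reads in the control and 1, 1, 1 and 2 in the Trrap-FBΔ cortices, and was not tested there. The striatum gave 11, 11, 12 and 20 reads in control and 44, 45, 34 and 59 in Trrap-FBΔ, and it was called higher (log2 fold change 1.49, SE 0.24, adjusted p = 0.00165). Kif28 had 5 to 30 reads per library and was not called in either genotype comparison, and neither was Kif26a (-0.24 and -0.17).

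A difference between the tissues in the response to the genotype was tested with edgeR's interaction term over all 16 libraries, which called 0 of 59 members, where 0.437% of all genes were called. At an unadjusted p under 0.05 edgeR gave 3 of the 59 members and 2347 of all 19438 genes. DESeq2 gave 3 members and 2255 genes, limma-voom 3 and 2377, and edgeR with the mouse as a block 10 and 2895. These other fits also called 0 members, where they called 429, 92 and 219 of all genes. The 3 members of the first edgeR fit were Klc3, with the larger rise in the striatum (difference of log2 fold changes 0.96, SE 0.28, adjusted p = 0.129), Kifc3 (0.18, SE 0.074, adjusted p = 0.337) and Kif26b (0.45, SE 0.20, adjusted p = 0.362). Kifc3, a motor towards the minus end, had 55.2, 56.1, 52.2 and 55.7 CPM in control and 46.99, 45.1, 45.8 and 51.4 in Trrap-FBΔ cortex. Striatal libraries held 52.5, 45.6, 48.8 and 47.1 in control and 47.4, 46.1, 46.3 and 49.7 in Trrap-FBΔ, and only the cortical groups were separate.

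Between the tissues the calls by role were as follows. Values are log2 fold changes of striatum over cortex from a fit of all 16 libraries. In controls 15 members were called higher and 15 lower in the striatum, where 44.5% of all genes were called, 22.5% higher and 22.0% lower. In Trrap-FBΔ 17 were higher and 13 lower, where 52.3% of all genes were called, 26.5% higher and 25.9% lower. Kif12 passed the filter on low counts only through the striatum, and without it the members higher were 14 and 16. Of the transport kinesins 3 were higher and 5 lower in controls and 4 and 4 in Trrap-FBΔ. Of the mitotic kinesins 4 and 3 were higher and 0 lower, and of the ciliary kinesins 5 and 4 were higher and 0 lower. Among the ciliary calls in controls, that of Kif7 was lost when 11 of the 16 libraries were left out in turn (adjusted p up to 0.145). That of Kif24 was lost for 4 (up to 0.0779). All 4 called dynactin subunits of the controls and all 3 of Trrap-FBΔ were lower in the striatum. Since 7 mice gave both tissues, the fit was repeated with the mouse as a block. In controls the calls of Kif21a, Kif24 and Dync1i2 were then lost (adjusted p = 0.116, 0.0867 and 0.0704) beside those of Kif18b and Kif20a given below, and Kif4, Kif11 and Kif26a were gained as higher (0.0244, 0.0356 and 0.0398). In Trrap-FBΔ Kif20a was lost, and Kif5a was gained as higher and Kif5c as lower (0.0477 and 0.0373). The transport kinesins then had 2 higher and 5 lower in controls and 5 and 5 in Trrap-FBΔ, the mitotic kinesins 4 and 2 higher and the ciliary kinesins 4 and 4.

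**Figure D5:**
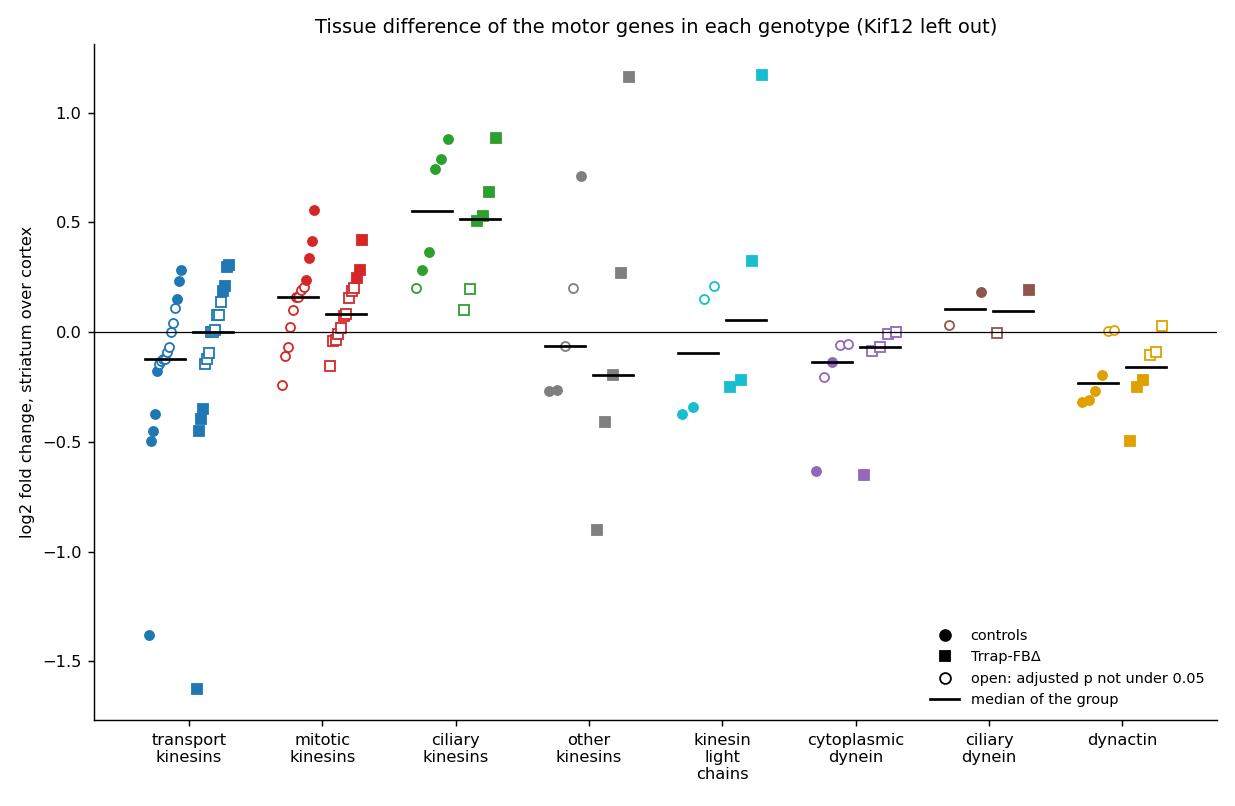
Log2 fold change of striatum over cortex (y axis) for each member tested, by role (x axis), in controls (circles) and Trrap-FBΔ (squares), with 4 libraries per group. Filled symbols have an adjusted p under 0.05 and black lines are medians. Kif21b is the lowest point of the transport kinesins, and all 6 ciliary kinesins lie above 0 in both genotypes. Kif12, at 0 to 2 reads per cortical library, is left out.

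Kif21b had the largest difference towards the cortex, with 0.385 times the cortical level in control striatum (log2 fold change -1.38, SE 0.10, adjusted p = 1.79e-08) and 0.324 times in Trrap-FBΔ (log2 fold change -1.63, SE 0.10, adjusted p = 1.63e-09), and no striatal library reached a cortical one. Dync1i1 (-0.63 ± 0.071 (SE; adjusted p = 1.76e-06) in controls and -0.65 ± 0.071 (SE; adjusted p = 8.04e-07) in Trrap-FBΔ) and Kif3c (-0.45 ± 0.056 (SE; adjusted p = 5.59e-06) and -0.40 ± 0.056 (SE; adjusted p = 1.55e-05)) were likewise lower in the striatum with separate groups. Kif3b stood at 202, 192, 192 and 196 CPM in control and 171, 186, 185 and 194 in Trrap-FBΔ cortex. Its striatal values were 139.8, 131, 144 and 139.8 in control and 137, 131, 139.6 and 131 in Trrap-FBΔ. It was lower in the striatum in both genotypes without overlap (log2 fold change -0.50, SE 0.044, adjusted p = 1.2e-07, and log2 fold change -0.45, SE 0.044, adjusted p = 1.79e-07).

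Kif12 had at most 2 reads in any cortical library, and no fold is given for it. Among the other members called in both genotypes, Kif26b, Kif19a and Kif6 had the largest mean differences towards the striatum. Klc3 differed by 1.17 ± 0.18 (SE; adjusted p = 4.09e-05) in Trrap-FBΔ and was not called in controls (0.21 ± 0.20 (SE; adjusted p = 0.437)), and Kif27 differed by 0.74 ± 0.13 (SE; adjusted p = 0.000135) in controls and 0.51 ± 0.12 (SE; adjusted p = 0.00194) in Trrap-FBΔ. Kif26b differed by 0.71 ± 0.14 (SE; adjusted p = 0.000548) in controls and 1.16 ± 0.14 (SE; adjusted p = 2.74e-06) in Trrap-FBΔ, and Kif6 by 0.88 ± 0.14 (SE; adjusted p = 4.97e-05) and 0.64 ± 0.13 (SE; adjusted p = 0.000387). Kif19a, a depolymerase that sets the length of motile cilia, had 9.43, 10.95, 10.6 and 8.06 CPM in control and 9.51, 8.34, 7.44 and 8.29 in Trrap-FBΔ cortex. It had 22.3, 12.3, 14.5 and 18.6 in control and 14.9, 16.95, 12.7 and 17.5 in Trrap-FBΔ striatum. All striatal values of Kif19a were above all cortical ones (log2 fold change 0.79, SE 0.16, adjusted p = 0.000557, and log2 fold change 0.88, SE 0.16, adjusted p = 0.000147).

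Markers of other cells moved with the tissue. In the striatum all 6 myelin genes were higher in controls (median 1.33) and in Trrap-FBΔ (1.79), and 5 and 6 of the 6 markers of ependymal cells and choroid plexus were higher (medians 1.24 and 1.197), beside the ciliary kinesins. Summed myelin markers ran from 1762 to 3120 CPM in control cortex and from 3144 to 9330 in control striatum, with the highest value in mouse 58, in which Kif19a and Kif26b were also highest. Their part in the tissue differences was not tested.

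Among mitotic kinesins Kif2c and Kif15 were higher in control striatum than in control cortex (0.55 ± 0.12 (SE; adjusted p = 0.000962) and 0.42 ± 0.090 (SE; adjusted p = 0.00115)) and were not called in Trrap-FBΔ (0.20 ± 0.12 (SE; adjusted p = 0.191) and 0.19 ± 0.091 (SE; adjusted p = 0.0986)) (the difference between the genotypes: adjusted p = 0.423 and 0.501). Kif18b and Kif20a were called in both genotypes, but in controls these calls were lost with the mouse as a block (adjusted p = 0.0568 and 0.111) and so was that of Kif20a in Trrap-FBΔ (0.0517). In controls they were also lost when 14 (Kif18b, adjusted p up to 0.169) or 11 (Kif20a, up to 0.156) of the 16 libraries were left out in turn. Kif20b was called in Trrap-FBΔ alone (0.28 ± 0.11 (SE; adjusted p = 0.0431)), a call lost without any of 9 libraries (up to 0.134).

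Partners of the motors under other names were read from lists of related genes. Over all genes tested, 15.7% were called higher and 17.6% lower in the cortex, and 14.4% and 15.8% in the striatum. Of the 3 kinesins with other names all were lower in the cortex and 2 in the striatum, among them Cenpe, the mitotic kinesin of the kinetochore (-0.49 ± 0.089 (SE; adjusted p = 0.00183) and -0.41 ± 0.10 (SE; adjusted p = 0.0139)). Of 15 dynein and dynactin subunits with other names, 1 was higher and 2 lower in the cortex and 0 and 2 in the striatum. Dynll1, the light chain that dynein shares with other complexes, was the one called in both tissues (-0.35 ± 0.077 (SE; adjusted p = 0.00519) and -0.68 ± 0.11 (SE; adjusted p = 0.00138)). Of 4 dynein regulators, Pafah1b1 among them, edgeR called 0 in either tissue, with 0 and 2 at an unadjusted p under 0.05.

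Of 22 motor adaptors tested, 3 were higher and 5 lower in the cortex and 3 and 7 in the striatum. All genes gave 15.7% higher and 17.6% lower in the cortex and 14.4% and 15.8% in the striatum. In both tissues 7 adaptors were called, with the same direction (31.8%, against 19.1% of all genes tested in both). Trak2 and Sybu, which tie mitochondria or vesicles to kinesin-1, were lower (-0.27 ± 0.064 (SE; adjusted p = 0.00779) and -0.28 ± 0.041 (SE; adjusted p = 0.000486) in the cortex, and -0.48 ± 0.048 (SE; adjusted p = 0.000181) and -0.43 ± 0.047 (SE; adjusted p = 0.000261) in the striatum). Hap1, a partner of dynactin and kinesin light chain, was higher (0.85 ± 0.20 (SE; adjusted p = 0.00707) in the cortex and 0.43 ± 0.093 (SE; adjusted p = 0.00681) in the striatum). Kifap3, Cenpe, Dynll1 and these 3 adaptors were chosen after their values were seen.

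Lists of other cell types changed with the genotype as well. All 6 microglial genes were lower in both tissues (medians -0.50 and -0.43), and so were 5 and 3 of 5 genes of oligodendrocyte precursors, which divide at this age, with sums of 366.3 to 399.5 against 283.5 to 315.8 CPM in the cortex and 494.9 to 612.7 against 387.8 to 465.8 CPM in the striatum. Immature neuron genes had 4 and 3 of 6 lower in cortex and striatum and 1 higher in the cortex (Igfbpl1, 0.44 ± 0.15 (SE; adjusted p = 0.043)), and myelin genes 6 of 6 and 0 of 6. Of 6 endothelial genes 5 and 1 were lower, of 8 astrocyte genes 2 rose and 2 fell in the cortex and 2 rose and 1 fell in the striatum, of 5 interneuron genes 1 rose in each tissue, and of 7 genes of striatal projection neurons and 5 of blood edgeR called 0, with 1 of the former and 0 of the latter at an unadjusted p under 0.05 in either tissue. The part of these cells in the falls of the mitotic kinesins was not tested.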

How the data were processed

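Poly(A) RNA of cortex and striatum was sequenced with stranded libraries. The authors deposited raw counts per gene in 1 table with a column for each library; per their methods, reads were demultiplexed with bcl2fastq 1.8.4, aligned to GRCm38 with STAR 2.5.4b, and uniquely mapped reads were assigned to Ensembl 92 genes on the matching strand with featureCounts 1.5.0. No column was left without a sample.

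The counts of 53801 genes were analysed with edgeR 4.0.16 in R 4.3.3 (filterByExpr, TMM, quasi-likelihood test, Benjamini-Hochberg adjustment over all genes tested), in 1 fit per tissue for the genotype and 1 fit of all 16 libraries for the tissue and the interaction. SE is the absolute log2 fold change divided by the square root of F. The computation was tested on simulated data. Exon lengths came from GENCODE vM21. Alternatives used DESeq2 1.42.0, limma 3.58.1 (voom), other scalings, no filter, sex as a covariate, the mouse as a block, a minimum fold of 1.2 and each library left out.

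Members, roles and lists of genes were chosen with earlier results of these data known. Values in every library are given for the 6 members with the largest falls and up to 6 with the largest rises among those called in both tissues (3 rose), for a main subunit of each role (10 genes), for the 3 with the smallest interaction p, and for the 4 with the largest tissue difference in each direction among those called in both genotypes. Genes of related lists were to be named where called in both tissues with a log2 fold change of at least 0.5 in size in each, which none met. The full values of Dync1li1, and the single genes named from lists of related genes and markers, were chosen after their values were seen.

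Libraries with the same mouse number come from the same mouse, so the numbers pair the 7 mice with both tissues. Over 18742 genes, the deviations from the group means correlated with r between 0.0246 and 0.303 within a mouse (median 0.271) and between -0.293 and 0.166 between mice of a like pair of groups (25 pairs, median -0.0391). Libraries of a group differed by more than sampling noise (chi-square per degree of freedom 8.26 to 44.6 over 24 pairs). Depth was 28743866 to 48761429 reads per library. Intervals from counting alone are not given, since 4 mice per group set the precision. The promoter sequences are those of RefSeq on GRCm38.p6.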

Additional observations from a re-analysis of the deposited data

Results flagged for a closer look

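In 124 groups of 4 libraries (31 members in 4 groups) a single library was far from the other 3 in 3 groups, where chance gives about 1 in 20 groups. Kif20b stood at 2.84 CPM in the striatum of the Trrap-FBΔ mouse 57, with 3.61 to 3.70 in the others, a gap of 0.889 of the group's range. Kifc1 stood at 1.12 CPM in the cortex of the Trrap-FBΔ mouse 59, with 0.849 to 0.861 in the others (0.954). Klc3 stood at 0.881 CPM in the striatum of the control mouse 58, with 1.17 to 1.23 in the others (0.835). The calls of Kif20b and Klc3 in the striatum and of Kifc1 in the cortex held when that library was left out.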

How the results depend on the processing

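No member called changed direction under any alternative run. Of 448 repeats of the 28 calls in the cortex 394 stayed past the threshold, and of 368 repeats of the 23 calls in the striatum 291, while 662 of 750 and 654 of 720 did so for the tissue difference in controls and in Trrap-FBΔ. A test against a minimum fold of 1.2 left 1 cortical member higher and 5 lower, 2 and 7 striatal ones, 6 and 5 between tissues in controls and 7 and 6 in Trrap-FBΔ. Under every other alternative 23 of the 28 cortical calls and 14 of the 23 striatal calls were made again. With each library left out in turn, the median of the mitotic kinesins ran from -0.546 to -0.402 in the cortex and from -0.621 to -0.524 in the striatum, and that of the transport kinesins from -0.153 (without the control mouse 63) to -0.084 in the cortex and from -0.068 to -0.031 (without the control mouse 58) in striatum. Striatal members called higher ran from 3 (without the Trrap-FBΔ mouse 57 or 60 or the control mouse 58) to 6, and those called lower from 11 (without the Trrap-FBΔ mouse 59 or the control mouse 64) to 23 (without the control mouse 63). In controls the members higher in the striatum ran from 9 (without the striatum of mouse 65) to 14. With sex as a covariate 7 were higher and 18 lower in the cortex and 4 and 12 in the striatum. The causes were not tested. With the mouse as a replicate block, 14 members were higher and 14 lower in the striatum in controls, 17 and 14 in Trrap-FBΔ, and 0 differed in the genotype effect between tissues. The block cannot be applied within a tissue, where each mouse has 1 library. With 4 libraries per group, changes of low genes such as Kif12, Kif28 and Kifc5b have wide errors.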
